A study of Homo sapiens with 12 samples.

Results

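The Y-box protein YBX1, a set of other mRNA-binding proteins and the machinery that degrades mRNA in the cytoplasm were followed in 12 RNA sequencing libraries of 2 human liver cancer cell lines. The set was a list of 38 gene symbols, all 38 of which were found among the 23583 features of the deposited count table. Huh7 is a hepatocellular carcinoma line that keeps hepatocyte functions, and HCCLM3 is a hepatocellular carcinoma line selected for metastasis. Each line was given a negative control siRNA (si-NC) or an siRNA against the circular RNA circASH2 (si-circASH2), with 3 libraries in each of the 4 groups. The question in the series' text is how silencing of circASH2 acts on metastasis. The sources used here do not state the siRNA sequences, the dose or the time after transfection, and each line is a single established line. The labels do not say if the 3 libraries in each group are separate cultures, and p-values therefore reflect only how much these libraries vary, possibly for technical reasons.

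An mRNA in the cytoplasm carries a poly(A) tail covered by poly(A)-binding proteins. Decay usually starts with shortening of the tail by the PAN2-PAN3 and CCR4-NOT nucleases, goes on with removal of the cap by DCP2 and its activators, and ends with digestion from the 5′ end by XRN1. Proteins bound to the 3′ untranslated region (UTR) decide how fast this happens. The ZFP36 family binds AU-rich sequences and brings in CCR4-NOT, whereas ELAVL1 binds similar sequences and protects the message. YBX1 is an abundant cold-shock domain protein that packages mRNA and influences its stability and translation, and it is the protein through which circASH2 has been described to act on mRNA. A separate route, nonsense-mediated decay, uses UPF1 to remove messages with early stop codons.

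The libraries were sequenced to between 29006781 and 30858895 counts. Values below are CPM, counts scaled to library size by TMM, unless FPKM is named. FPKM are the authors' deposited values, scaled by length and depth in a way that the sources used here do not detail. A CPM or FPKM carries its SD (n = 3), and a log2 fold change carries its standard error from the fit of 3 libraries in each group. The table holds no feature for circASH2. Its host gene ASH2L lay between 74.1 and 80.2 CPM in Huh7 si-NC and between 65.5 and 68.1 in Huh7 si-circASH2, and between 31.3 and 34.3 in HCCLM3 si-NC and 26.4 and 28.1 in HCCLM3 si-circASH2, which does not measure the circle. Of 8 hepatocyte markers all 8 were above 1 CPM in Huh7 and 5 in HCCLM3, where their sum was between 153.8 and 157.8 CPM in si-NC libraries against 34980 to 35180 CPM in Huh7. HCCLM3 had 3.24 CPM of albumin (ALB) and 94.9 CPM of HNF4A. Summed fibroblast markers lay between 34.4 and 40.1 CPM in Huh7 si-NC and 56.7 and 57.7 in Huh7 si-circASH2, and between 35.6 and 37.9 and then 48.9 and 53.5 in HCCLM3, while endothelial and leukocyte sums were between 19.6 and 27.8 and between 143.4 and 419.3 CPM over the 12 libraries. Most of the fibroblast sum was COL1A2 in Huh7 (24.5 CPM with si-NC, 38.9 with si-circASH2) and LUM in HCCLM3 (34.3 and 48.4). Most of the leukocyte sum was LYZ in Huh7 (375.3 CPM with si-NC) and CD68 in HCCLM3 (153.6 CPM with si-NC). CD3E was at 0 in every library, and the part of these markers in the results was not tested. In a bulk library fewer cells with a transcript and less transcript in each cell cannot be told apart.

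Short sequences in the 3′ UTRs of the genes described below are shown first, some of a kind that proteins of this set bind. They come from GENCODE 29 transcripts (GRCh38), with 1 transcript per gene, that with the longest 3′ UTR in the basic set, and were searched on the transcript strand only. The AU-rich nonamer TTATTTATT, a sequence that ZFP36 proteins are known to bind, was in 1560 of 19115 human 3′ UTRs (8.16%) and in 6 of the 38 genes here, among them all 3 members of the ZFP36 family. Windows of 29 bases are given 5′ to 3′ with the nonamer in capitals.
ZFP36 (chr19:39409196-39409224, plus strand): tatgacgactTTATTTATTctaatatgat
ZFP36L1 (chr14:68788077-68788105, minus strand): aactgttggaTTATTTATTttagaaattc
ZFP36L2 (chr2:43223448-43223476, minus strand): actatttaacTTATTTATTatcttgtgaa
ELAVL1 (chr19:7961828-7961856, minus strand): atttatgtatTTATTTATTgaagtgtgaa
YBX3 (chr12:10699182-10699210, minus strand): tatgtccttcTTATTTATTtctaggatga
UPF1 (chr19:18867923-18867951, plus strand): gcagggactcTTATTTATTcccattgctc

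Other short sequences were chosen with earlier results of these same libraries known, so their presence here is a description and supports nothing. No protein of this set is put forward here as a reader of TCGGAGAA or TTATACCA. Whether genes that carry them changed together was not tested here. TCGGAGAA was in 107 of the 19115 3′ UTRs (0.56%) and, among the 38 genes, in G3BP2. TTATACCA was in 611 (3.2%) and, among the 38, in G3BP1. Its overlapping parts TTATACC and TATACCA were in 7.42% and 8.2% of all 3′ UTRs and, counted together, in ELAVL1, G3BP1, CNOT4, CNOT6 and XRN1. The Pumilio sequence TGTANATA was in 25.1% of all 3′ UTRs and in 13 of the 38 genes, PUM2 itself included. The G3BP2 and G3BP1 windows, 30 bases each with the searched sequence in capitals, are these.
G3BP2 (chr4:75644092-75644121, minus strand): tactgcaatttTCGGAGAAaagaacagcag
G3BP1 (chr5:151809304-151809333, plus strand): tttaaatgacaTTATACCAagaagttggta

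With control siRNA, the lines differed in most of these genes. Apart from YBX3 the median size of the log2 difference was 0.44, beside 0.13 after knockdown in Huh7 and 0.08 in HCCLM3. Over all tested features the same median sizes were larger, at 0.96, 0.18 and 0.17. Of the 37 genes other than YBX3, 22 were lower and 11 higher in HCCLM3 than in Huh7 by edgeR's quasi-likelihood test at an adjusted p of 0.05, against 43.6% of all 16946 tested features lower and 41.6% higher. The median log2 difference was -0.31 over the 37 genes other than YBX3 and -0.04 over all tested features. On the FPKM scale, which allows genes to be compared, YBX1 was the most abundant of the set in Huh7 si-NC (805 ± 13.6 FPKM), followed by PABPC1 (340 ± 17.3). The order was the other way round in HCCLM3 si-NC, with PABPC1 at 679 ± 32.2 FPKM and YBX1 at 443.8 ± 7.43. The least abundant in Huh7 were CNOT6L (2.30 ± 0.935 FPKM) and RC3H1 (2.50 ± 0.0588), whose spread overlaps, and in HCCLM3, apart from YBX3, PAN3 (2.33 ± 0.151) and DCP2 (2.34 ± 0.132), which do not differ beyond their spread either.

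YBX3, the close relative of YBX1 that represses translation, was read in Huh7 and listed at 0 in HCCLM3. Its count lay between 2522 and 2876 in the 6 Huh7 libraries and was 0 in all 6 HCCLM3 libraries. The si-NC libraries of Huh7 had 84.5, 87.8 and 82.7 CPM, at least 2520-fold above the level that 3 counts over the HCCLM3 si-NC libraries would give (0.0338 CPM). YBX3 passed the filter on low counts only through Huh7, and HCCLM3 allows no fold change for it after knockdown. Whether these zeros are absence of transcript or a failed assignment of reads was not tested.

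The other large differences between the lines ran in both directions. ZFP36, which destabilises AU-rich mRNAs, had 17.3, 18.6 and 16.7 CPM in the Huh7 si-NC libraries and 119.5, 123.8 and 123.3 in those of HCCLM3, a log2 difference of 2.80 ± 0.05 (edgeR adjusted p = 1.29e-23). Its relative ZFP36L2 went the opposite way, with 146.7, 142.4 and 135.2 CPM in Huh7 and 66.4, 60.9 and 64.4 in HCCLM3 (-1.15 ± 0.05, edgeR adjusted p = 8.48e-17). CNOT6, a deadenylase of CCR4-NOT, was at 108.3, 106.2 and 108.4 CPM against 37.98, 37.9 and 35.4 (-1.54 ± 0.05, edgeR adjusted p = 1.1e-19), while its paralog CNOT6L was higher in HCCLM3 (0.90 ± 0.07). None of the si-NC libraries overlapped between the lines for these 4 genes, which was also so for 14663 of all 16946 tested features. DCP2, the decapping enzyme, had 60.2, 56.1 and 57.7 CPM in Huh7 and 21.8, 24.6 and 24.1 in HCCLM3 (-1.30 ± 0.06), and PAN2, a tail-shortening nuclease, had 48.8, 49.2 and 52.7 against 23.0, 22.0 and 26.0 (-1.09 ± 0.07). YBX1 itself was lower in HCCLM3 by 0.86 ± 0.03 on the log2 scale and PABPC1 higher by 1.02 ± 0.04. The tail adaptors BTG1 (0.07 ± 0.04), TOB1 (0.00 ± 0.04) and TOB2 (0.05 ± 0.05) and the CCR4-NOT subunit CNOT3 (0.00 ± 0.05) did not pass the test. G3BP1, a stress granule protein, depended on the unit: its CPM were lower in HCCLM3 (-0.26 ± 0.04), whereas its FPKM were higher (51.5 ± 0.782 against 34.4 ± 0.466, 0.58 by limma on log2 FPKM with 0.1 added, limma adjusted p = 9.52e-08). A single fixed length for G3BP1 would not change its direction, and the lengths behind the FPKM are not stated. PAN3 was lower in HCCLM3 by 0.81 ± 0.30 (edgeR adjusted p = 0.0301), a call lost when any single si-NC library of either line was left out (0.0582 to 0.0843). Its si-NC libraries did not overlap, with 20.9, 21.9 and 20.9 CPM in Huh7 and 12.7, 12.6 and 10.99 in HCCLM3. The standard error comes from the fit over all 12 libraries, which includes HCCLM3 si-circASH2 replicate 1 with 4.34 CPM. XRN1 was higher by 0.21 ± 0.07 (edgeR adjusted p = 0.0107, 0.0501 without Huh7 si-NC replicate 2 and 0.0689 without HCCLM3 si-NC replicate 1), and CNOT4 by 0.16 ± 0.06 (0.0145, and 0.0536 without HCCLM3 si-NC replicate 2). BTG1 passed instead without Huh7 si-NC replicate 3 (0.0442) or HCCLM3 si-NC replicate 2 (0.0426).

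**Figure D1:**
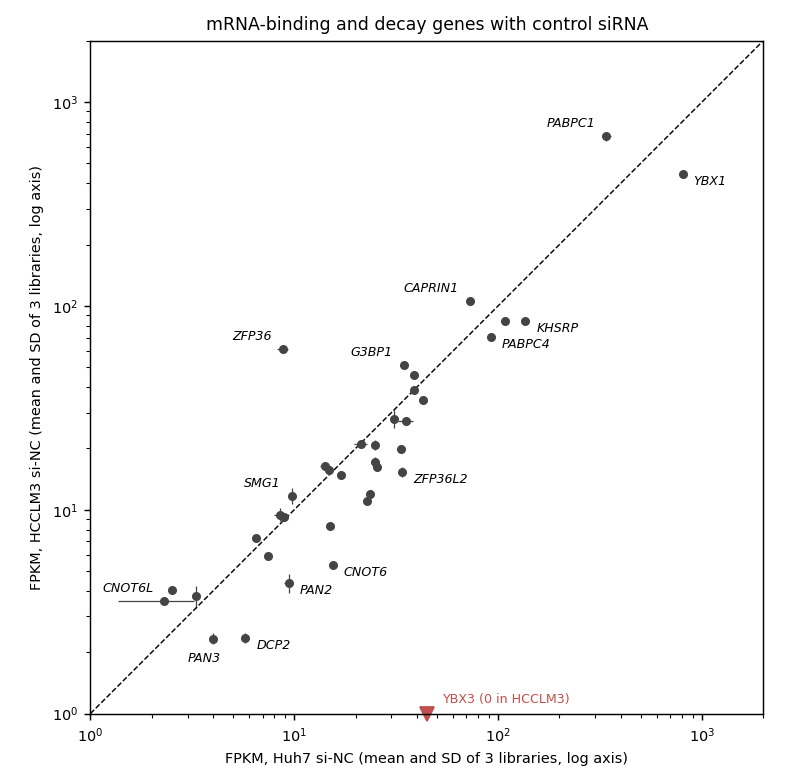
FPKM with control siRNA in Huh7 (x axis) and HCCLM3 (y axis), both log axes, for 37 genes of mRNA binding and decay, with points and bars for the mean and SD of 3 libraries and a dashed line of equal level. YBX1 lies below the line, PABPC1 and ZFP36 above it, and the triangle marks YBX3, which is listed at 0 in HCCLM3 and so has no place on a log axis.

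After si-circASH2 most genes of the set moved by small amounts, more of them down than up in Huh7. In Huh7 14 of the 38 fell (36.8%, against 15.1% of all tested features) and 4 rose (10.5%, against 16.3%), while 20 did not pass. Their median log2 fold change was -0.09, beside 0.01 over all tested features, and the range ran from -0.43 to 0.73. In HCCLM3 6 fell (15.8%, against 15.5% of all features) and 5 rose (13.2%, against 15.1%), shares near the background, with a median of -0.03 over the 37 genes other than YBX3 and 0.00 over all features. The si-circASH2 and si-NC libraries did not overlap for 27 of the 38 genes in Huh7 (42.7% of all features) and for 17 in HCCLM3 (43.7% of all features). G3BP2 and TOB2 rose in both lines, CAPRIN1, CNOT6L and DDX6 fell in both, and PABPC4 fell in Huh7 and rose in HCCLM3. The test of the difference between the lines, HCCLM3 minus Huh7, passed for 6 genes in the positive direction (9.60% of all features) and for 5 in the negative (11.3%).

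**Figure D2:**
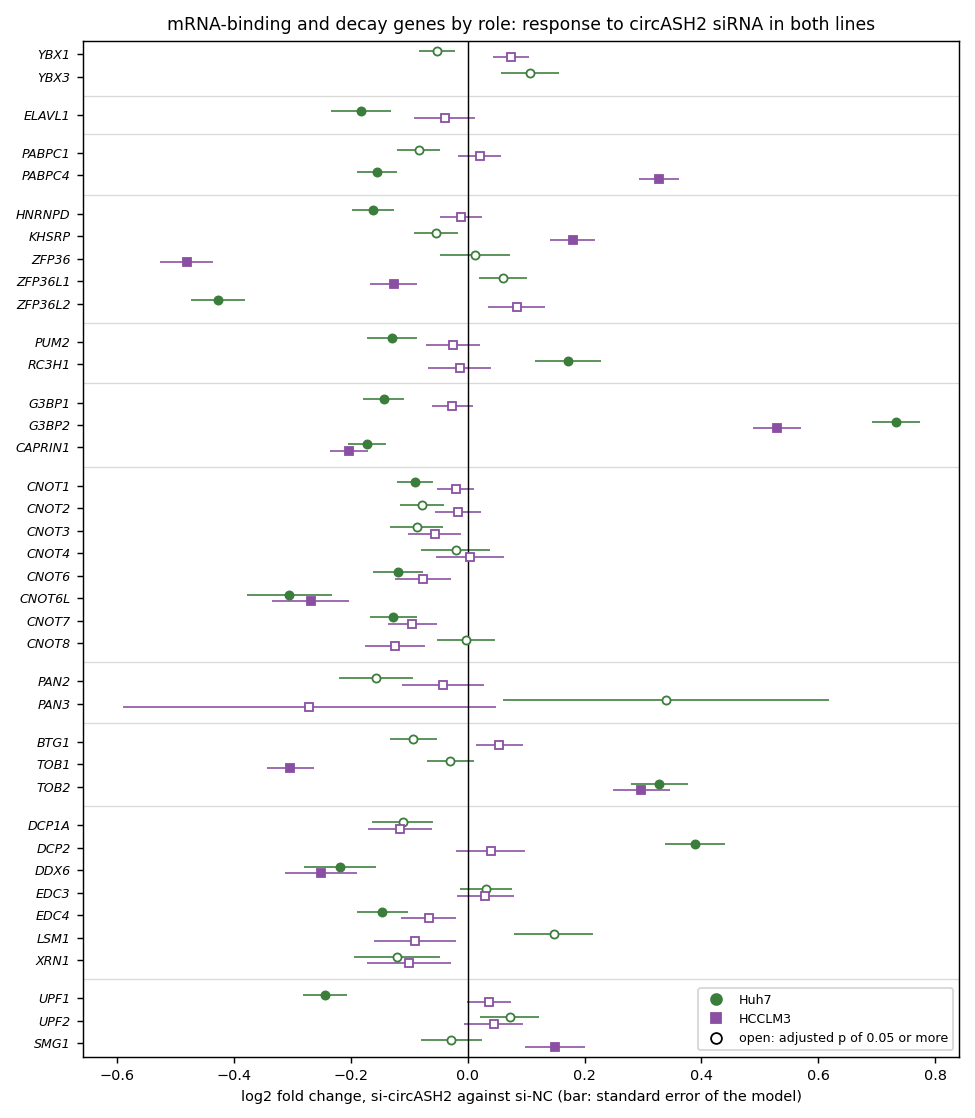
Log2 fold change of si-circASH2 against si-NC (x axis) for each gene, grouped by role and separated by grey lines, with circles for Huh7, squares for HCCLM3 and bars for the standard error. Filled symbols passed an adjusted p of 0.05: G3BP2 lies farthest to the right in both lines, ZFP36 and ZFP36L2 farthest to the left in 1 line each, and YBX3 has no value in HCCLM3.

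YBX1, the gene that heads the set, gave no call in Huh7 or in HCCLM3. Its si-NC libraries in Huh7 had 1397, 1374 and 1358 CPM and its si-circASH2 libraries 1351, 1341 and 1288. In HCCLM3 the values were 751.9, 756.1 and 764.3 with si-NC and 820.0, 771.6 and 801.1 with si-circASH2. The groups lay close together without overlapping, the knockdown libraries a little below the controls in Huh7 and a little above them in HCCLM3. The log2 fold changes were -0.05 ± 0.03 (edgeR adjusted p = 0.203) and 0.07 ± 0.03 (edgeR adjusted p = 0.0682, and 0.0241 without HCCLM3 si-circASH2 replicate 2). The HCCLM3 value also passed with DESeq2 (adjusted p = 0.0332), with upper quartile factors in edgeR (0.0375) and with HCCLM3 fitted alone (edgeR adjusted p = 0.0383). The difference between the lines was 0.13 ± 0.04 (edgeR adjusted p = 0.0374). That call was lost without Huh7 si-NC replicate 1 or 2, Huh7 si-circASH2 replicate 3, any HCCLM3 si-NC library, or HCCLM3 si-circASH2 replicate 1 or 3 (edgeR adjusted p between 0.0580 and 0.140). YBX3 had 91.8, 95.3 and 87.5 CPM in the Huh7 si-circASH2 libraries, which overlapped with the controls (0.11 ± 0.05, edgeR adjusted p = 0.118).

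Over the 12 libraries, after the mean of each line was subtracted, the 3 genes among 9691 with at least 10 CPM whose pattern was most like that of YBX1 were RPA1, a single-strand DNA-binding subunit (Pearson r = 0.94), AP2M1, a clathrin adaptor subunit (0.93), and CXXC5 (0.91). Within the set PABPC4 (0.80) and KHSRP (0.64) were nearest and PAN3 (-0.70) farthest. These values describe 12 libraries that share their scaling and their 4 groups.

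The poly(A)-binding proteins split. PABPC4, which coats poly(A) tails as the less abundant paralog of PABPC1, had 295.4, 298.6 and 288.2 CPM in Huh7 si-NC and 268.7, 257.3 and 266.0 in Huh7 si-circASH2. HCCLM3 showed 216.7, 232.1 and 224.7 with si-NC and 284.5, 274.9 and 285.4 with si-circASH2. All knockdown libraries were lower in the first line and all were higher in the other. The log2 fold changes were -0.16 ± 0.03 (edgeR adjusted p = 0.00113) and 0.33 ± 0.03 (edgeR adjusted p = 1.14e-07), and their difference was 0.48 ± 0.05 (edgeR adjusted p = 1.43e-07). PABPC1, the major cytoplasmic poly(A)-binding protein, had -0.08 ± 0.04 in Huh7 and 0.02 ± 0.04 in HCCLM3. In Huh7 its edgeR adjusted p was 0.0878, and it passed with Huh7 fitted alone (0.0207), with no filter on low counts (0.0415) and without HCCLM3 si-circASH2 replicate 2 (0.0342) or 3 (0.0273). Without that last library the difference between the lines passed as well (0.00928, against 0.170 with all 12).

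The ZFP36 family, whose 3 proteins deliver AU-rich mRNAs to deadenylation, differed between the lines in every member. ZFP36L2 fell in Huh7, and ZFP36 and ZFP36L1 fell in HCCLM3. ZFP36 had 17.3, 18.6 and 16.7 CPM in Huh7 si-NC and 18.2, 18.6 and 16.2 in Huh7 si-circASH2, which overlap. In HCCLM3 it went from 119.5, 123.8 and 123.3 CPM to 88.2, 88.2 and 86.2, with every knockdown library below every control. The log2 fold change there was -0.48 ± 0.05 (edgeR adjusted p = 2.1e-08), against 0.01 ± 0.06 in Huh7, and the difference was -0.49 ± 0.08 (edgeR adjusted p = 3.47e-05). ZFP36L2 showed the reverse arrangement. It went from 146.7, 142.4 and 135.2 CPM to 109.7, 98.7 and 107.1 in Huh7, without overlap, and from 66.4, 60.9 and 64.4 to 66.8, 70.7 and 65.6 in HCCLM3, with overlap. The fall of -0.43 ± 0.05 in Huh7 had an edgeR adjusted p of 1.45e-07, beside 0.08 ± 0.05 in HCCLM3 (0.216), and the difference was 0.51 ± 0.07 (edgeR adjusted p = 5.05e-06). ZFP36L1 had 139.1, 139.9 and 140.8 CPM in Huh7 si-NC and 152.2, 139.4 and 146.1 after knockdown, and 162.2, 165.0 and 164.6 against 158.9, 147.3 and 144.1 in HCCLM3. It fell in HCCLM3 (-0.13 ± 0.04, edgeR adjusted p = 0.0197) and not in Huh7 (0.06 ± 0.04), with a difference of -0.19 ± 0.06 (edgeR adjusted p = 0.0219). The HCCLM3 call of ZFP36L1 was lost without HCCLM3 si-NC replicate 2 (0.0581) or 3 (0.0525) or si-circASH2 replicate 2 (0.0944) or 3 (0.101), and its difference without replicate 1 of the Huh7 knockdown (0.0585) or replicate 2 (0.0850) or 3 (0.0571) of the HCCLM3 knockdown.

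Of the remaining binders of AU-rich sequences ELAVL1 and HNRNPD fell in Huh7 and KHSRP rose in HCCLM3. ELAVL1 (HuR), which stabilises AU-rich mRNAs, had 114.4, 106.6 and 103.8 CPM in Huh7 si-NC and 98.7, 86.8 and 100.7 after knockdown. The groups did not overlap, but the nearest libraries were only a few CPM apart. Its fall in Huh7 (-0.18 ± 0.05) had an edgeR adjusted p of 0.00831, a call lost without Huh7 si-NC replicate 1 (0.0635) or si-circASH2 replicate 2 (0.0741), and had -0.04 ± 0.05 in HCCLM3. HNRNPD (AUF1), which promotes decay of AU-rich mRNAs, fell in Huh7 (-0.16 ± 0.04, edgeR adjusted p = 0.00104) from 309 ± 5.91 to 276 ± 8.75 CPM and had -0.01 ± 0.04 in HCCLM3. Its difference of 0.15 ± 0.05 (edgeR adjusted p = 0.0359) was lost without Huh7 si-NC replicate 2, Huh7 si-circASH2 replicate 1 or 3, HCCLM3 si-NC replicate 1 or 3, or HCCLM3 si-circASH2 replicate 1 or 2 (0.0546 to 0.123). KHSRP, a decay factor with KH domains, rose in HCCLM3 from 219 ± 4.49 to 248 ± 3.24 CPM (0.18 ± 0.04, edgeR adjusted p = 0.000834), had -0.05 ± 0.04 in Huh7, and differed between the lines by 0.23 ± 0.05 (edgeR adjusted p = 0.00277). PUM2, a Pumilio repressor, fell in Huh7 (-0.13 ± 0.04, edgeR adjusted p = 0.0234), lost without Huh7 si-NC replicate 1 (0.131) or 3 (0.0513) or si-circASH2 replicate 1 (0.121) or 2 (0.0606). RC3H1 (Roquin-1), which binds stem loops and recruits CCR4-NOT, rose in Huh7 (0.17 ± 0.06, edgeR adjusted p = 0.0219), lost without Huh7 si-NC replicate 3 (0.0764) or si-circASH2 replicate 3 (0.138). Both had values near 0 in HCCLM3 (-0.03 ± 0.05 and -0.01 ± 0.05).

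**Figure D3:**
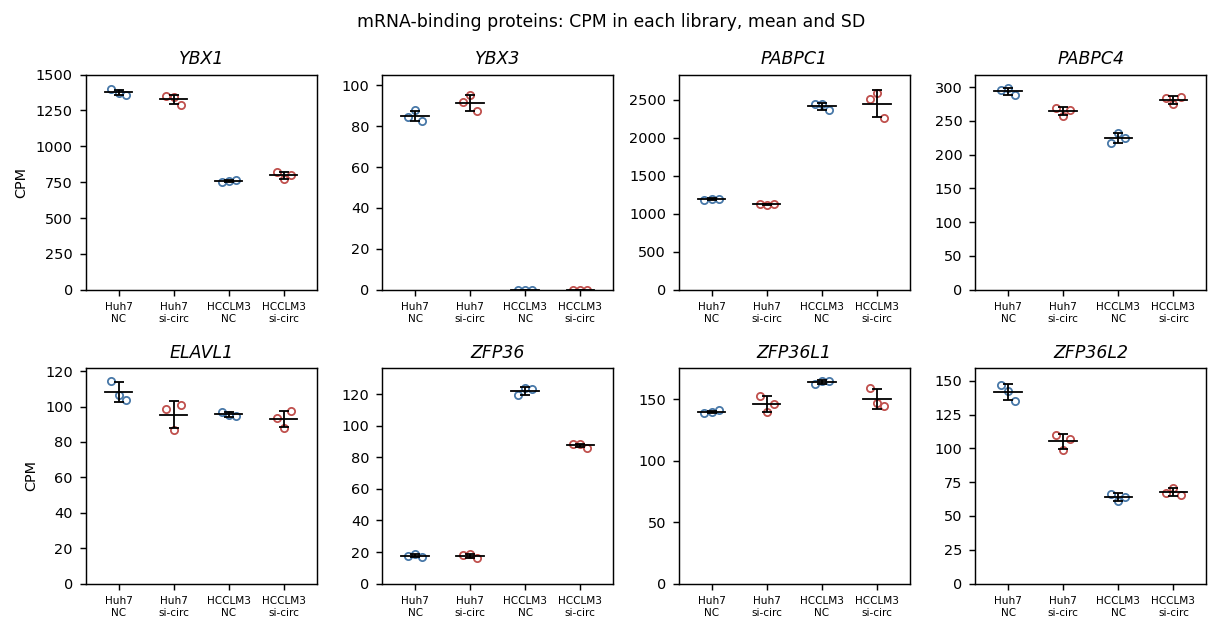
CPM (y axis, from 0) in each library of the 4 groups (x axis, NC for si-NC and si-circ for si-circASH2) for 8 mRNA-binding proteins, with open circles for libraries and bars for the mean and SD of 3. The si-circASH2 libraries of ZFP36 drop only in HCCLM3, at 86.2 to 88.2 CPM, and those of ZFP36L2 only in Huh7, at 98.7 to 109.7, and YBX3 stays at 0 in HCCLM3.

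G3BP2 had the largest change of the set in both lines. It encodes a scaffold protein of stress granules, the bodies in which untranslated mRNA collects. Its CPM were 143.0, 132.7 and 147.2 in Huh7 si-NC and 230.6, 232.8 and 239.4 in Huh7 si-circASH2. In HCCLM3 they were 116.9, 111.2 and 110.3 with si-NC and 166.7, 163.3 and 158.2 with si-circASH2. Every knockdown library lay well above every control of its line. Huh7 gave 0.73 ± 0.04 (edgeR adjusted p = 2.9e-12) and HCCLM3 0.53 ± 0.04 (edgeR adjusted p = 7.38e-10). The HCCLM3 rise was the smaller, with a difference of -0.20 ± 0.06 (edgeR adjusted p = 0.0123), a call lost without Huh7 si-NC replicate 2 (0.0523) and with limma on FPKM (adjusted p between 0.622 and 0.655). Its partners did not follow. CAPRIN1, which binds G3BP proteins, went from 341.5, 334.1 and 323.1 to 294.4, 294.7 and 297.0 CPM in Huh7 and from 480.4, 496.8 and 478.1 to 430.8, 416.5 and 416.8 in HCCLM3. It fell by similar amounts, -0.17 ± 0.03 (edgeR adjusted p = 0.000185) and -0.20 ± 0.03 (edgeR adjusted p = 2.56e-05), with a difference of -0.03 ± 0.05. G3BP1, the paralog of G3BP2, fell in Huh7 from 275 ± 6.24 to 249 ± 5.18 CPM (-0.14 ± 0.04, edgeR adjusted p = 0.00277, but 0.262 and 0.263 by limma on FPKM). It had -0.03 ± 0.04 in HCCLM3, and the difference passed only without HCCLM3 si-circASH2 replicate 2 (0.0459, against 0.102 with all libraries). The searched sequence TCGGAGAA shown above for G3BP2 is rare in all 3′ UTRs (0.56%), so its absence from the other genes of the set says little. Any part of it in the rise of G3BP2 was not tested.

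CCR4-NOT is the main deadenylase complex, and each of the 8 genes listed for it had a fold change at or below 0 in Huh7. In Huh7 4 of the 8 passed, all lower (15.1% of all features were lower), with a median log2 fold change of -0.09. In HCCLM3 1 of 8 passed, lower (15.5% of all features), with a median of -0.07. CNOT6L, 1 of its catalytic deadenylases, fell in both lines. It had 16.1, 15.2 and 15.3 CPM in Huh7 si-NC and 11.99, 12.3 and 13.4 in Huh7 si-circASH2, and 30.2, 27.1 and 29.6 against 23.2, 24.4 and 24.5 in HCCLM3, with no overlap in either line. The log2 fold changes were -0.31 ± 0.07 (edgeR adjusted p = 0.0023) and -0.27 ± 0.07 (edgeR adjusted p = 0.00298, but 0.178 and 0.134 by limma on FPKM). The scaffold CNOT1 (-0.09 ± 0.03, edgeR adjusted p = 0.0283) and the catalytic subunits CNOT6 (-0.12 ± 0.04, 0.0362) and CNOT7 (-0.13 ± 0.04, 0.0195) also fell in Huh7, by amounts that single libraries decided. CNOT1 was lost without Huh7 si-NC replicate 1 (0.115) or 2 (0.0524) or si-circASH2 replicate 1 (0.0510) or 3 (0.0824). CNOT6 was lost without any Huh7 si-NC library (0.0543 to 0.0951) or si-circASH2 replicate 2 (0.201), and CNOT7 without Huh7 si-NC replicate 3 (0.0523) or si-circASH2 replicate 1 (0.132). In HCCLM3 CNOT7 (-0.09 ± 0.04) passed only without HCCLM3 si-NC replicate 1 (0.0475). CNOT2, CNOT3, CNOT4 and CNOT8 lay between -0.12 and 0.00 in both lines and did not pass. The difference between the lines passed for 0 of the 8 by edgeR, 0 at an unadjusted p under 0.05 and 0 under every alternative that was run. Among the 82 genes described below are 4 other subunits or partners of CCR4-NOT. In Huh7 3 of these 4 had positive fold changes, with TNKS1BP1 called higher (0.29 ± 0.05) and CNOT9 lower (-0.17 ± 0.04). In HCCLM3 TNKS1BP1 was called higher (0.23 ± 0.04) and CNOT11 lower (-0.28 ± 0.04). Of the 4, only CNOT11 passed for the difference (-0.35 ± 0.06, edgeR adjusted p = 8.93e-05).

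The second deadenylase, PAN2-PAN3, gave no call. PAN2 had -0.04 ± 0.07 in HCCLM3, beside -0.16 ± 0.06 in Huh7 (edgeR adjusted p = 0.0607). In Huh7 PAN2 passed with Huh7 fitted alone (0.0193), with no filter on low counts (0.0417) and without Huh7 si-circASH2 replicate 2 (0.0310), HCCLM3 si-NC replicate 3 (0.0436) or HCCLM3 si-circASH2 replicate 2 (0.0418). PAN3, which recruits PAN2 to mRNA, had 20.9, 21.9 and 20.9 CPM in Huh7 si-NC and 25.2, 27.1 and 28.3 in Huh7 si-circASH2. In HCCLM3 si-circASH2 it had 4.34, 12.7 and 12.9 CPM, the first of these standing apart from the rest, against 12.7, 12.6 and 10.99 with si-NC. The log2 fold change in Huh7 was 0.34 ± 0.28 (edgeR adjusted p = 0.424). That adjusted p was 0.000696 without HCCLM3 si-circASH2 replicate 1, the library with 4.34 CPM, or 0.000596 with Huh7 fitted alone. With all libraries PAN3 had -0.27 ± 0.32 in HCCLM3 (edgeR adjusted p = 0.604) and a difference between the lines of -0.61 ± 0.42 (edgeR adjusted p = 0.384).

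The BTG/TOB adaptors, which link CCR4-NOT to poly(A)-binding proteins and restrain proliferation, moved apart. TOB2 rose in both lines, from 45.5, 45.5 and 45.6 CPM to 60.1, 53.1 and 58.2 in Huh7 and from 48.3, 47.1 and 46.3 to 58.6, 58.9 and 56.6 in HCCLM3. No library overlapped. Huh7 had 0.33 ± 0.05 (edgeR adjusted p = 1.29e-05), HCCLM3 had 0.30 ± 0.05 (edgeR adjusted p = 4.65e-05), and they differed by -0.03 ± 0.07. TOB1 had 98.8, 98.9 and 93.5 CPM in Huh7 si-NC and 98.2, 95.5 and 91.6 after knockdown. In HCCLM3 it went from 98.5, 98.6 and 94.1 to 78.5, 80.1 and 77.3. It thus fell in HCCLM3 without overlap (-0.30 ± 0.04, edgeR adjusted p = 3.3e-06), had -0.03 ± 0.04 in Huh7, and differed between the lines by -0.27 ± 0.06 (edgeR adjusted p = 0.00113). BTG1 had -0.09 ± 0.04 in Huh7 and 0.05 ± 0.04 in HCCLM3 and did not pass (edgeR adjusted p = 0.0843 and 0.341).

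Of 7 decapping and 5′ to 3′ decay genes 1 rose, 2 fell and 4 did not pass in Huh7, and 1 fell and 6 did not pass in HCCLM3. Over all features 16.3% rose and 15.1% fell in Huh7 and 15.5% fell in HCCLM3, so the HCCLM3 share of 14.3% lower is near the background. DCP2, which cleaves the cap, rose from 60.2, 56.1 and 57.7 CPM to 72.4, 78.7 and 76.8 in Huh7. In HCCLM3, where it was lower to begin with, its 21.8, 24.6 and 24.1 CPM compared with 23.7, 24.7 and 24.0 after knockdown. The rise of 0.39 ± 0.05 in Huh7 (edgeR adjusted p = 2.2e-06) stood beside 0.04 ± 0.06 in HCCLM3, a difference of -0.35 ± 0.08 (edgeR adjusted p = 0.00201). DDX6, an RNA helicase that activates decapping and represses translation, fell in both lines. It went from 102.4, 92.7 and 94.0 CPM to 87.5, 73.6 and 87.3 in Huh7 and from 114.0, 111.0 and 106.5 to 96.5, 86.2 and 95.7 in HCCLM3, and si-circASH2 replicate 2 was the lowest library of both lines. Huh7 had -0.22 ± 0.06 (edgeR adjusted p = 0.0116), beside -0.25 ± 0.06 in HCCLM3 (edgeR adjusted p = 0.00447). The Huh7 call was lost without Huh7 si-NC replicate 1 (0.0600) or si-circASH2 replicate 2 (0.0548). EDC4, a scaffold of decapping, fell in Huh7 (-0.15 ± 0.04, edgeR adjusted p = 0.012, lost without si-circASH2 replicate 2 at 0.0587 or 3 at 0.0711) and had -0.07 ± 0.05 in HCCLM3. DCP1A, the cofactor of DCP2, had -0.11 ± 0.05 and -0.12 ± 0.05, and XRN1, the exonuclease that finishes decay, -0.12 ± 0.07 and -0.10 ± 0.07, in Huh7 and HCCLM3, and neither passed. EDC3 lay at 0.03 in both lines. LSM1, of the ring that binds shortened tails, had 0.15 ± 0.07 and -0.09 ± 0.07, and its difference of -0.24 ± 0.10 passed only without HCCLM3 si-NC replicate 3 (0.0482) or si-circASH2 replicate 1 (0.0140, against 0.0890 with all libraries).

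Nonsense-mediated decay was represented by 3 genes. UPF1, the helicase at its centre, had 202.6, 199.4 and 199.5 CPM in Huh7 si-NC and 177.6, 168.6 and 161.6 after knockdown. In HCCLM3 the values were 119.3, 119.6 and 118.0 and then 120.3, 125.2 and 120.5. It fell in Huh7 (-0.24 ± 0.04, edgeR adjusted p = 1.86e-05), had 0.04 ± 0.04 in HCCLM3 and differed by 0.28 ± 0.05 (edgeR adjusted p = 0.000443). SMG1, the kinase that phosphorylates UPF1, was higher in HCCLM3 (0.15 ± 0.05, edgeR adjusted p = 0.0347), where 217.8 to 242.4 CPM after knockdown overlapped with 190.1 to 221.8 in the controls. The SMG1 call was lost with HCCLM3 fitted alone (0.176) and without HCCLM3 si-NC replicate 3 (0.221) or si-circASH2 replicate 1 (0.137) or 2 (0.127). Its difference between the lines passed without HCCLM3 si-circASH2 replicate 3 (0.0288), against 0.0996 with all libraries. UPF2, the UPF1 activator, had 0.07 ± 0.05 in Huh7 and 0.04 ± 0.05 in HCCLM3.

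**Figure D4:**
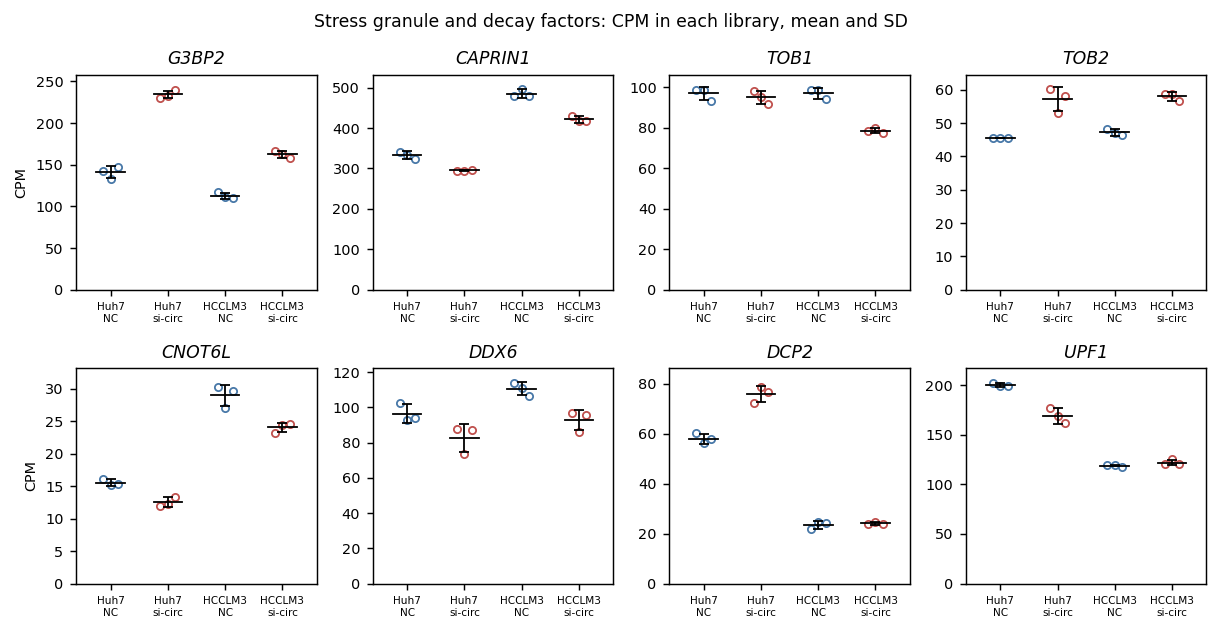
CPM (y axis, from 0) in each library of the 4 groups (x axis, NC for si-NC and si-circ for si-circASH2) for 8 genes of stress granules and mRNA decay, with open circles for libraries and bars for the mean and SD of 3. G3BP2 and TOB2 are above their controls in both lines, CAPRIN1, CNOT6L and DDX6 below them, TOB1 passed the test only in HCCLM3, and DCP2 and UPF1 only in Huh7.

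A list of 82 other genes of mRNA binding and decay gives the surroundings of these results. In Huh7 23 of the 82 fell (28.0%, against 15.1% of all features), 5 rose (6.1%, against 16.3%) and 54 did not pass, with a median log2 fold change of -0.04. In HCCLM3 19 fell (23.2%, against 15.5%), 17 rose (20.7%, against 15.1%) and 46 did not pass, with a median of 0.00. DCPS, the scavenger of cap remnants (-0.74 ± 0.07), DIS3L, a cytoplasmic exosome nuclease (-0.53 ± 0.06), and SYNCRIP, an RNA-binding hnRNP protein (-0.24 ± 0.04), had the smallest p among those that fell in Huh7. YTHDF2, a reader of methylated adenosine that recruits CCR4-NOT (0.28 ± 0.04), TNKS1BP1, a CCR4-NOT partner (0.29 ± 0.05), and NOCT (0.40 ± 0.08) led those that rose. In HCCLM3 RC3H2, the paralog of RC3H1 (-0.41 ± 0.05), ZC3H12A, the endonuclease Regnase-1 (-0.47 ± 0.06), and IGF2BP2, a reader of methylated adenosine (-0.39 ± 0.05) led the falls, and IGF2BP3, of the same family (0.36 ± 0.04), SKIV2L, a helicase that feeds the exosome (0.32 ± 0.05), and LARP1, which binds messages with a terminal oligopyrimidine tract (0.18 ± 0.03), led the rises. DIS3L (-0.23 ± 0.06), SYNCRIP (-0.25 ± 0.04) and TNKS1BP1 (0.23 ± 0.04) were called in the same direction in HCCLM3, as were IGF2BP2 (-0.23 ± 0.05) and SKIV2L (0.19 ± 0.05) in Huh7. IGF2BP3 was called lower in Huh7 (-0.17 ± 0.04), a difference of 0.53 ± 0.06 (edgeR adjusted p = 3.23e-07). The other genes named here were not called in the other line. The exosome and its helicase complex had 6 of 16 genes lower (37.5%, against 15.1% of all features) and 1 higher (6.25%, against 16.3%) in Huh7, and 2 lower (12.5%) and 3 higher (18.8%) in HCCLM3, where 15.5% and 15.1% of all features were. Other LSM and decapping genes had 4 of 14 lower in Huh7 (28.6%, against 15.1% of all features) and 3 of 14 higher in HCCLM3 (21.4%, against 15.1%).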

How the data were processed

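RNA sequencing libraries of 12 samples were placed in 4 groups of 3 by their titles. Per the labels' protocols, total RNA was column purified and libraries came from a SMARTer mRNA kit. The authors deposited whole-number counts per gene, and FPKM, which they scaled by length and depth. The sources used here do not state aligner, counter, strand or annotation, and builds hg38, GRCm38 and mm10 are listed in the submitters' processing notes without roles. Genes with near-identical copies or antisense partners are uncertain because read sharing is unknown.

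Counts were filtered with filterByExpr (minimum count of 10), leaving 16946 features, scaled by TMM and fitted over all 12 libraries with edgeR 4.0.16 (robust quasi-likelihood, R 4.3.3). Benjamini-Hochberg adjustment covered all features, with a threshold of 0.05. Alternatives used DESeq2 1.42.0, other scalings, no filter, each line alone, a replicate block, limma 3.58.1 on log2 FPKM with 0.1 or 1 added, and each library left out. The fit was also run on simulated counts drawn from the Huh7 si-NC means with a common spread for all genes. These hold no difference between the lines and no outlying library, so the fit was not tested for such data. Replicate pairs had chi-square per degree of freedom between 3.89 and 8.53, so none was treated as duplicated.

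The 38 genes and the list of 82 others were chosen with earlier results of these data known. Described library by library were YBX1, YBX3, the 8 largest called changes per knockdown and the 6 largest for the difference and for the controls. ZFP36L1 and PAN3, given likewise, were added after their values were seen. Of the 82 genes, 5 were matched by an older symbol, and up to 3 per direction with the smallest p are named.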

Additional observations from a re-analysis of the deposited data

Results flagged for a closer look

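The response to si-circASH2 differed between the lines for 11 of the 38 genes (28.9%, against 20.9% of all tested features). The test was edgeR's for the difference itself (HCCLM3 minus Huh7, log2 scale). Positive differences were found for ZFP36L2 (0.51), PABPC4 (0.48), UPF1 (0.28), KHSRP (0.23), HNRNPD (0.15) and YBX1 (0.13). Negative differences were found for ZFP36 (-0.49), DCP2 (-0.35), TOB1 (-0.27), G3BP2 (-0.20) and ZFP36L1 (-0.19). The ZFP36 and ZFP36L2 values are of nearly the same size with opposite signs, and PABPC4 is the only 1 of the 11 that was called in both lines in opposite directions. The cause of these differences was not tested. Groups of 3 libraries are too small for the rule on single libraries that stand apart.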

How the results depend on the processing

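In the 4 comparisons, 74 of 150 results for single genes were called, of which 52 kept their call and direction under every alternative run, and 10 uncalled ones passed under at least 1. G3BP1 between the si-NC groups reversed, from -0.26 to 0.58 and 0.57 with limma on log2 FPKM with 0.1 and 1 added. The count of genes past the threshold was 18 in Huh7 (13 to 20 with 1 library left out, 12 to 21 otherwise), 11 in HCCLM3 (9 to 12 and 8 to 12), 11 for the difference (8 to 11 and 7 to 12) and 34, YBX3 included, between the si-NC groups (32 to 34 and 31 to 34). Over all tested features 31.4%, 30.6%, 20.9% and 85.2% passed in the main fit of these 4 comparisons. Limma on log2 FPKM with 0.1 added gave the 7 genes for the difference. The 82 other genes had 36 calls in HCCLM3 and 21 or 22 with limma on FPKM. RLE factors, upper quartile factors and DESeq2 shifted the median by at most 0.02. The titles' replicate numbers did not pair the libraries (r between -0.20 and 0.10 for 6 same-numbered pairs), and a replicate block gave 20, 11, 12 and 31 genes, gaining PABPC1 and PAN2 in Huh7 and SMG1 for the difference and losing CNOT4, PAN3 and LSM1 between the si-NC groups. Limma on FPKM lost, with at least 1 of the offsets, PUM2, RC3H1, G3BP1, CNOT1, CNOT6 and CNOT7 in Huh7, ZFP36L1, CNOT6L and SMG1 in HCCLM3, YBX1, HNRNPD, ZFP36L1 and G3BP2 for the difference, and CNOT2, CNOT4 and XRN1 between the si-NC groups. Upper quartile factors lost CNOT1 and CNOT6 in Huh7. The cause was not tested. Depth limits YBX3 in HCCLM3 to 0.0338 CPM (3 counts over a group).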

Other observations

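YBX3 was 1 of 53 named features with at least 20 CPM in Huh7 and 0 counts in all 6 HCCLM3 libraries, and 38 named features, the membrane-cytoskeleton linker MSN (1220 CPM in HCCLM3) among them, had the opposite arrangement. Named features leave out those with an MSTRG identifier in place of a gene symbol. Whether such features hold reads of YBX3 or MSN was not tested. PAN3 had 384 counts in HCCLM3 si-circASH2 replicates 2 and 3 and 128 in replicate 1.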
